A study of Mus musculus with 2 samples.

Results

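Cycling fibroblasts were collagen-rich heart cells that carried several messenger molecules of cell division genes 14 days after myocardial infarction. They numbered 465 of the 8555 cell barcodes of the infarct (MI) library and of 14892 barcodes in the series. A cell was a member if at most 25% of its unique molecular identifiers (UMIs, tags that each count 1 captured mRNA molecule) came from mitochondrially encoded genes. At least 1.5% of its UMIs had to come from Col1a1, Col1a2 and Col3a1 together, and at most 2 UMIs from C1qa, C1qb and C1qc, which mark macrophages. It also needed at least 5 UMIs over Mki67, Top2a, Cenpf, Ube2c, Cdc20, Ccnb1, Ccnb2 and Birc5, called cycle UMIs here. The same library held 2434 cells with the same mitochondrial, collagen and C1q limits but at most 1 cycle UMI. These are called comparison fibroblasts, and a low cycle count does not show that such a cell was at rest.

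The series profiled hearts of male wild type C57BL6/J mice aged 8 to 10 weeks by Drop-seq, in which droplets give the mRNA of each cell its own barcode. The MI library came from 1 heart with a ligated left anterior descending coronary artery. The sham library came from 4 pooled hearts operated on without tightening the suture, also at 14 days. Each group was thus 1 library, cells of 1 heart are not replicates, and no p-value was computed.

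After an infarct, resident cardiac fibroblasts multiply, turn on contractile genes such as Acta2 as myofibroblasts, and lay down the collagen scar that replaces dead muscle. As the scar ages, many take on a quieter state known in the mouse as the matrifibrocyte, with tendon-like and cartilage-like matrix genes. During division, genes of DNA synthesis and histones are highest in S phase, and genes of the spindle and kinetochore in G2 and mitosis. Many mitotic promoters hold CCAAT boxes, bound by NF-Y, together with a cell cycle homology region (CHR), bound by the MuvB complex. E2F factors bind many promoters of S phase genes.

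Promoter stretches of genes that chose or characterised the cycling fibroblasts make some of these elements visible. Each line gives the 150 bases before the RefSeq start (GRCm38.p6), 5′ to 3′ on the gene's strand. Capitals mark CCAAT, the CHR letters TTTGAA or TTCGAA and the E2F letters TTTCGCGC or TTTGGCGC, each searched on both strands. Mki67 (chr7:135716380-135716529, minus strand), Top2a (chr11:99024190-99024339, minus strand) and Ccnb2 (chr9:70421555-70421704, minus strand) belonged to the selection. Mcm5 (chr8:75109359-75109508, plus strand) and Mcm6 (chr1:128359706-128359855, minus strand) encode subunits of the replicative helicase. Acta2 (chr19:34255374-34255523, minus strand), the smooth muscle actin gene of myofibroblasts, is shown as a gene outside the cycle program.
Mki67: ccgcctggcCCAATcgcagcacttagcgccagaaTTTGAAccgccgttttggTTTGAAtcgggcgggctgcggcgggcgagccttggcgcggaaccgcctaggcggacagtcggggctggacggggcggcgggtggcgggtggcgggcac
Top2a: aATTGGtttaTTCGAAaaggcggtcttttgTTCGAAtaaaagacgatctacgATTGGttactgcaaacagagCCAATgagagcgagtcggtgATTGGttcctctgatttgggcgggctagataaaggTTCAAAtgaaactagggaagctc
Ccnb2: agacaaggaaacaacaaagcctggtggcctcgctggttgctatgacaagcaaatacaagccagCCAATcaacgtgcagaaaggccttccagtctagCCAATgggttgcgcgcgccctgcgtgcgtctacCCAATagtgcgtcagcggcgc
Mcm5: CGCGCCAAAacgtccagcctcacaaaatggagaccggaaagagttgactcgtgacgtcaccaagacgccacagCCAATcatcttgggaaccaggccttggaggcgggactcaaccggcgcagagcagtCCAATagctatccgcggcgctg
Mcm6: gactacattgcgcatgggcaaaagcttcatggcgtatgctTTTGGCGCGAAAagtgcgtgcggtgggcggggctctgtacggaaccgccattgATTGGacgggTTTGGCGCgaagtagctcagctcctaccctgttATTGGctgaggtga
Acta2: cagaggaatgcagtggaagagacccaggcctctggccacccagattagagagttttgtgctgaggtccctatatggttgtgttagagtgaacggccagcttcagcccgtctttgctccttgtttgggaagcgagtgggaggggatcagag

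The mitotic promoters here were the 79 found for the mitotic kinase, kinetochore and spindle lists together with the 8 selecting genes. Over the 250 bases before each start, CCAAT occurred in 70.9% of them, against 34.5% of the 27025 genes of the reference table. A CHR occurred in 36.7% of those mitotic promoters, against 17.4% of all genes. Both elements together occurred in 31.6%, against 6.21%. An E2F match stood in 10.9% of the 46 promoters found for DNA replication and nucleotide synthesis, against 0.673% of all genes. The elements were not particular to 1 list: E2F matches stood in 6.33% of the mitotic promoters, and the replication and nucleotide promoters held CCAAT in 58.7% and a CHR in 21.7%. The letters of the 2 E2F forms overlap in Mcm5 and Mcm6. The 17 contractile promoters found held CCAAT in 58.8% and a CHR in 5.88%. Of the 8 selecting genes, which are included in these mitotic promoters, 7 had CCAAT and 5 had both elements within 250 bases. Such matches are letters in a window and say nothing of binding in these cells.

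Cycling fibroblasts made up 14.8% (exact binomial interval 13.5% to 16.0%) of the 3151 MI cells that met the mitochondrial, collagen and C1q limits. All intervals here are 95% intervals and cover counting error only. In the sham library 0 of 104 such cells had 5 cycle UMIs, which allows a share of up to 2.88% by a floor of 3 counts and of 3.48% by the exact interval. The sham cells were shallow, with a median of 1448 UMIs, against 5253 in the MI cells. Thinned to 1500 UMIs a cell, with at least 2 cycle UMIs required, the share was 14.3% in MI (420 of 2936, 215 shallower cells left out) and 0 of 50 in sham (54 left out). A collagen limit of 0.3%, chosen after seeing the data to reach more sham cells, gave 566 of 3895 cells or 14.5% in MI and 6 of 1818 or 0.330% (0.121% to 0.717%) in sham. Thinned in the same way, 500 of 3334 cells qualified in MI (561 left out) and 6 of 935 or 0.642% in sham (883 left out). The 2 libraries shared 5 barcodes.

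The members spanned a wide range of cycle UMIs, from 5 to 210 with a median of 17, and 344 of them had at least 10. Mki67, the gene of the proliferation antigen that coats mitotic chromosomes, was detected in 91.8% of members. Birc5 (survivin, of the chromosomal passenger complex) was found in 82.4%, Top2a (topoisomerase II alpha) and Ccnb2 (a mitotic cyclin) each in 73.1%, and Cenpf (a kinetochore protein) in 69.5%. Cdc20, an activator of the anaphase-promoting complex, was found in 66.5%, its ubiquitin-conjugating enzyme Ube2c in 50.5%, and the mitotic cyclin Ccnb1 in 37.4%. All 8 genes were detected in 87 members and a single one in 1 member. These shares describe the selection and support nothing else.

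Just inside the limit, 29 members had 5 cycle UMIs, and just outside it 51 cells had 4. The histone gene Hist1h2ap, which was not part of the selection, had 664 CPM (UMIs of a gene per 1e6 UMIs of the set) in the members at the limit and 301 CPM in the cells below it. Acta2 had 2889 CPM inside and 2659 CPM outside, and the matricellular gene Postn 1875 and 1769 CPM. A further 46 members had between 1.5% and 2.0% collagen UMIs, while 33 cells between 1.0% and 1.5% met the other limits. Of the members, 380 had no C1q UMI, 74 had 1 and 11 had 2; 19 cells outside had 5 or more.

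Members were deeper than comparison fibroblasts, with medians of 7274 and 4898 UMIs and of 2649 and 1955.5 genes. Their median collagen share was lower, 3.69% against 4.72%, and their median mitochondrial share was 4.92% against 5.66%. The cycle minimum counts UMIs, so deeper cells reach it more readily. Its part in the levels below was not tested beyond cells limited to 4000 to 12000 UMIs. In that range the medians were 7451 UMIs in members and 6316 UMIs in comparison fibroblasts, so depth was closer but not equal. The fibroblast label was checked on Pdgfra, the platelet-derived growth factor receptor of fibroblasts, which had 72.9 CPM in members and 68.8 CPM in comparison fibroblasts. It was detected in 37.2% and 27.3% of these cells, and in 0.694% of MI lymphocytes. Thinned to 2000 UMIs a cell, these shares were 11.1%, 12.7% and 0 of 35 cells, so at equal depth the members were not above the comparison fibroblasts. Pdgfra is a single gene of a wider identity list given below. Of the 14 genes measured there, 2 were at least 2-fold lower in members (6.89% over all genes) and none higher. Intervals of the ratio lay above 0 for 5 of them and below 0 for 5. Acta2 and Postn were detected together in 416 members (89.5%) and in 68.3% of comparison fibroblasts.

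Markers of other cell types were low but differed between the sets. None of the 15 measured macrophage and monocyte markers was 2-fold different, and the 16 on the list summed to 421 CPM in members and 571 CPM in comparison fibroblasts. The 9 mural cell markers summed to 299 and 220 CPM, and the 10 endothelial ones to 150 and 126 CPM, with Cldn5 at 0 in members. At least 2-fold higher were 1 of 7 measured mural and 1 of 8 endothelial markers, and 1 endothelial marker was lower. Of all genes measured, 5.21% were higher and 6.89% lower. At least 3 mural UMIs were found in 97 members (20.9%) and in 9.33% of comparison fibroblasts, at unequal depth. Closer depth did not make the mural difference smaller. The median log2 ratio of the measured mural markers was 0.29 over all depths and 0.78 in the depth range given above. Of 9 mesothelial markers 7 were at least 2-fold lower in members, summing to 125 CPM against 301 CPM. The 10 cardiomyocyte markers summed to 32.7 and 44.0 CPM, with Mb, Myl2 and Pln at 0 in members, and the 9 T and NK cell markers to 7.31 and 7.59 CPM, with Cd3g at 0. The 6 B cell markers summed to 236 CPM in members, where 1 cell alone held 347 of 905 UMIs, and to 150 CPM in comparison fibroblasts. Values are therefore also given for the 350 members and 1746 comparison fibroblasts with at most 2 UMIs of 7 myeloid genes, at most 1 of 4 mural genes and 0 of 5 mesothelial genes, called the stricter cells and chosen after seeing the data.

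Among 11502 genes with at least 50 UMIs over both sets, 599 genes (5.21%) were at least 2-fold higher in cycling fibroblasts and 793 (6.89%) at least 2-fold lower. The median log2 ratio over all of them was -0.06. For 408 of the higher and 149 of the lower genes the whole interval of the ratio lay past 2-fold. Of the higher genes, 203 stood in a cell cycle list, out of 220 such list genes measured, and 396 stood in none. Without the 8 selecting genes these counts were 195 of 212. The cells had been selected on genes of that same cycle, so the count describes the selected cells and supports nothing else. Over all genes, the interval of the log2 ratio lay above 0 for 22.2% and below 0 for 24.6%, the background for counts of intervals in a list.

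**Figure D1:**
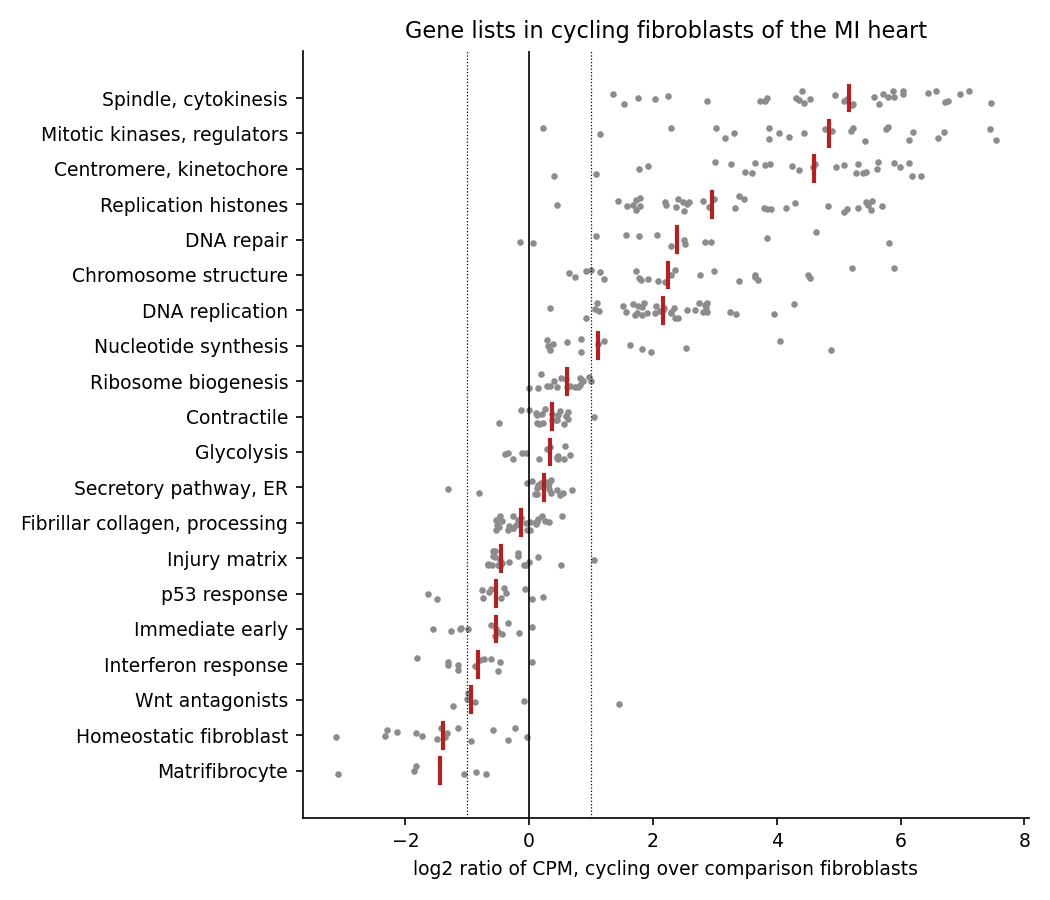
Log2 ratio of CPM of cycling over comparison fibroblasts (horizontal axis) for the measured members of 20 gene lists (rows). Each grey point is 1 gene, the red bar is the list's median, and dotted lines mark a 2-fold difference; the spindle list has a median of 5.17 and the matrifibrocyte list one of -1.44.

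The S phase machinery was higher throughout. Past 2-fold lay 35 of 37 measured DNA replication genes, none of them lower, and the median log2 ratio was 2.16. Clspn, which relays the checkpoint signal at stalled forks, had 101 CPM in cycling and 5.21 CPM in comparison fibroblasts, a log2 ratio of 4.28. The helicase gene Mcm5, whose promoter is printed above, had 30.8 and 3.04 CPM, and the polymerase gene Pole had 11.2 and 0.723 CPM. Pcna, the sliding clamp of the DNA polymerases, had a smaller difference, 182 CPM against 56.8 CPM (1.68, interval 1.53 to 1.83).

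Nucleotide supply genes were split. A 2-fold higher level was reached by 8 of 15, and the median was 1.11. Tk1, which makes thymidine monophosphate by salvage, had 111 CPM in cycling and 3.76 CPM in comparison fibroblasts (4.88, 4.46 to 5.32). Rrm2, the cycle-regulated subunit of ribonucleotide reductase, had 86.2 and 5.21 CPM (4.05), while its partner Rrm1 had 162 and 45.8 CPM (1.82). Thymidylate synthase (Tyms) had 146 and 37.2 CPM. The partner subunits thus differed in size but not in direction.

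Replication-dependent histone genes summed to 7943 CPM in cycling and 655 CPM in comparison fibroblasts. Past 2-fold were 35 of the 36 measured, and the median was 2.95. Hist1h2ap had 1378 and 29.6 CPM (5.54, 5.39 to 5.69) and the linker histone gene Hist1h1b 122 and 8.46 CPM. The exception was Hist1h2bc, with 338 and 248 CPM (0.45). Most replication-dependent histone mRNAs lack the poly(A) tail that bead capture relies on, and the H2A copies are nearly identical, so their single values are uncertain. The list leaves out 3 further H2A copies named below (Hist1h2ah, Hist1h2ad and Hist1h2ai), so its sum also depends on how reads were split between copies.

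The mitotic lists had the largest ratios. All 34 measured spindle and cytokinesis genes were at least 2-fold higher (median 5.17), as were 27 of 28 centromere and kinetochore genes (4.60) and 23 of 24 mitotic kinases and regulators (4.84). Plk1, a kinase that drives mitotic entry and spindle assembly, had 67.4 CPM in cycling and 0.362 CPM in comparison fibroblasts, a log2 ratio of 7.54. Kif23, a kinesin of the central spindle, had 216 and 1.23 CPM (7.46). Cenpe, the kinetochore motor, had 873 and 11.9 CPM (6.19, 5.97 to 6.43).

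Further genes at the top of the ranking had the same pattern. Nusap1 and Tpx2, which bind spindle microtubules, had log2 ratios of 7.11 and 6.04, and Hmmr, the hyaluronan-mediated motility receptor of the spindle, one of 6.96. The kinase gene Pbk had 7.45, the abscission gene Cep55 6.58, the spindle gene Ckap2l 6.44 and the kinetochore gene Nuf2 6.33. Kif14, a cytokinesis kinesin, had 23.5 CPM in members and 0 UMIs in comparison fibroblasts, so its log2 ratio was at least 6.76 against a floor of 3 counts over that set. The 2 mitotic exceptions were securin (Pttg1), with 57.2 and 49.0 CPM (0.22), and the kinetochore gene Zwint, with 55.4 and 41.7 CPM (0.41). Both had more than 40 CPM in comparison fibroblasts, unlike the genes above.

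The highest genes outside every list were largely genes also known from the division cycle. Fam64a had 52.5 CPM in cycling and 0.362 CPM in comparison fibroblasts (7.18). Shcbp1 had a log2 ratio of 6.23, Sapcd2 of 6.00, Depdc1a of 5.97, Spdl1 of 5.52, the DNA glycosylase gene Neil3 of 5.44, and Knstrn, Cdca2 and Cdca3 of 4.98, 4.95 and 4.73. The other 3 were the histone genes Hist1h2ah, Hist1h2ad and Hist1h2ai, with 5.39, 5.36 and 5.20. Chromosome structure genes were higher in 21 of 24 cases (median 2.24), with the cohesin acetyltransferase gene Esco2 at 5.89 and the condensin genes Ncapg, Ncaph and Ncapd2 at 5.22, 4.53 and 4.51. Of 14 DNA repair genes 12 were higher (median 2.39), led by Parpbp (5.82).

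The brakes and starters of the cycle did not move as 1 group. Of 21 genes of cyclin-dependent kinase inhibitors and D cyclins 3 were at least 2-fold higher and 1 was lower (5.21% and 6.89% over all genes). Their median was -0.13. Cdkn1a, the p21 inhibitor and a p53 target, had 71.6 CPM in cycling and 158 CPM in comparison fibroblasts, a log2 ratio of -1.14 (-1.33 to -0.96). Thinned to 2000 UMIs a cell, Cdkn1a was detected in 10.9% of members, 17.4% of comparison fibroblasts and 14.3% of 35 lymphocytes. Unthinned, these shares were 25.6%, 27.1% and 8.33%. The thinned lymphocyte share has an interval of 4.81% to 30.3%, too wide to decide whether the fibroblast shares stand clear of background. Whether lymphocytes themselves express Cdkn1a was not tested. In the depth range given above, the log2 ratio of Cdkn1a was -1.07 (-1.32 to -0.83).

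The phosphatase gene Cdkn3, the inhibitor gene Cdkn2d and the pocket protein gene Rbl1 were the higher ones, with log2 ratios of 4.67, 2.25 and 2.61. The p27 gene Cdkn1b had 88.3 and 85.1 CPM (0.05, -0.13 to 0.23) and the p57 gene Cdkn1c 68.2 and 102 CPM (-0.58). Among D cyclins, Ccnd1 had 72.4 CPM in cycling and 37.0 CPM in comparison fibroblasts (0.97, and 0.66 in depth-matched cells), Ccnd2 107 and 171 CPM (-0.67) and Ccnd3 54.1 and 46.4 CPM (0.22). The D cyclins thus differed in direction. No gene of the p53 response list was 2-fold higher and 2 of 12 were lower (6.89% over all genes), Trp53inp1 (-1.63) and Eda2r (-1.48). The list median was -0.54.

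Contractile genes of the myofibroblast were modestly higher. Of 21 measured genes 1 was at least 2-fold higher, a share near the background of 5.21%, and none was lower. Intervals lay above 0 for 16, against 22.2% of all genes, and the median was 0.37. Cycling macrophages also had higher contractile levels, as given in the comparison with them. Acta2 had 2802 CPM in cycling and 1856 CPM in comparison fibroblasts (0.59, 0.56 to 0.63). Actg2, the enteric smooth muscle actin, had 231 and 112 CPM (1.04, 0.92 to 1.16). Calponin (Cnn1) had 114 and 73.5 CPM and the tropomyosin genes Tpm2 and Tpm4 had log2 ratios of 0.47 and 0.56.

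Other contractile genes differed little. Tagln had 1178 and 1087 CPM (0.11), Cald1 2804 and 2816 CPM (-0.01) and Csrp2 899 and 987 CPM (-0.13). In cells with no mesothelial UMI the list's median was 0.15 in place of 0.37. In the stricter cells the log2 ratio was 0.50 for Acta2 and 0.81 for Actg2. Contractile genes are also expressed by mural cells, whose markers summed higher in members as given above; 32 members (6.88%) had at least 2 UMIs of the pericyte genes Rgs5, Kcnj8, Abcc9 and Higd1b, against 3.49% of comparison fibroblasts.

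**Figure D2:**
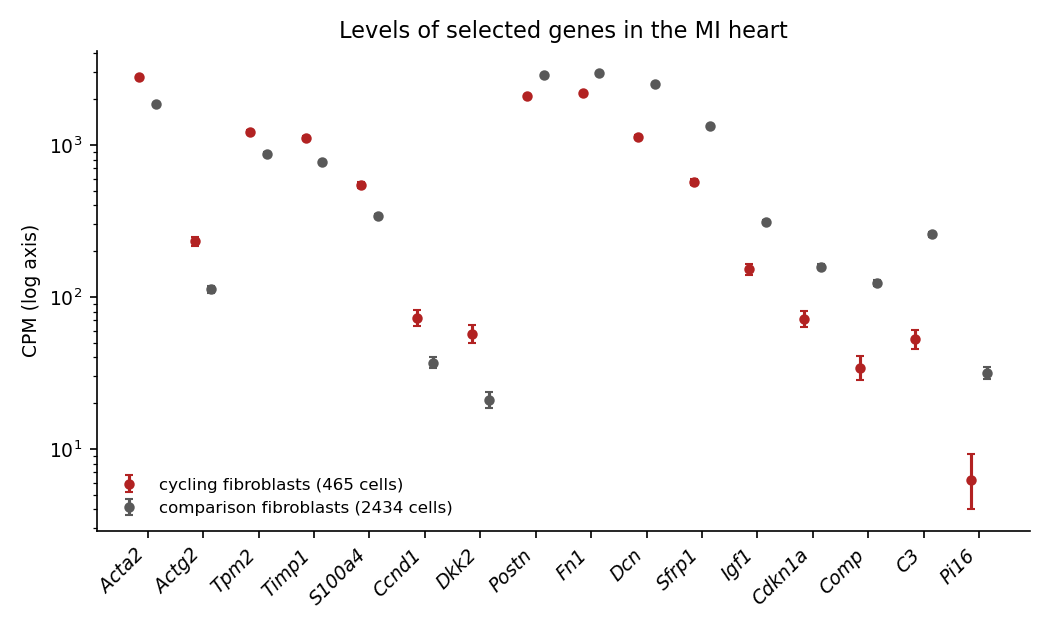
Levels in CPM (log axis) of 16 genes in cycling fibroblasts (red, left of each pair) and comparison fibroblasts (grey), with 95% Poisson intervals that cover counting error only. Acta2 has 2802 and 1856 CPM, Dcn 1128 and 2517 CPM, and Comp 34.2 and 124 CPM.

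Detection per cell gave the same order for Acta2 once depth was equal. After thinning each cell to 2000 UMIs, which left out 24 members and 319 comparison fibroblasts, Acta2 was found in 88.2% of members and 67.4% of comparison fibroblasts (94.2% and 76.2% unthinned). In MI lymphocytes, which should lack it, it was found in 7 of 35 cells, with 109 shallower cells left out (20.8% unthinned, median depth 1419.5 UMIs). Postn was found in 84.1% of members and 79.1% of comparison fibroblasts, against 17.1% of lymphocytes.

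The share of cycling cells also differed with the Acta2 level of a cell. Among 1766 collagen-rich MI cells of 4000 to 12000 UMIs ordered by the Acta2 share of their UMIs, 41 of 589 (6.96%, 5.04% to 9.33%) were members in the lowest tertile. The middle tertile had 18.4% and the highest 27.7% (24.1% to 31.5%). The tertiles differed in depth, with medians of 6086, 6547 and 7103 UMIs from low to high Acta2. In the stricter cells the shares were 8.76%, 22.2% and 27.3%. Postn did not give such an order, with 17.1%, 23.5% and 12.4% from its lowest to its highest tertile.

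**Figure D3:**
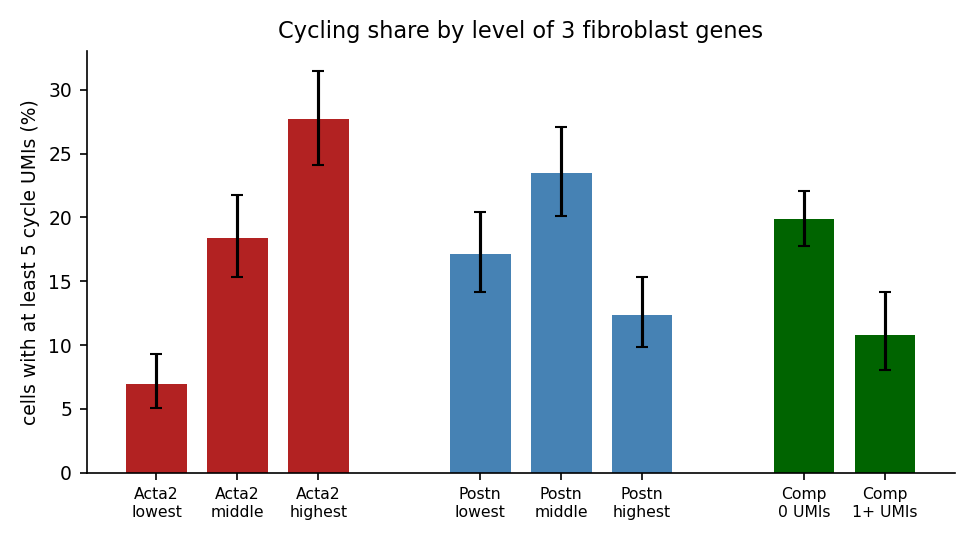
Share of collagen-rich MI cells of 4000 to 12000 UMIs with at least 5 cycle UMIs (vertical axis, percent), by tertile of the Acta2 or Postn share of UMIs or by detection of Comp; error bars are exact binomial 95% intervals over cells of 1 heart. The share is 6.96% in the lowest and 27.7% in the highest Acta2 tertile, and 19.9% without and 10.8% with Comp.

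Matrix genes were lower or little different. None of 27 genes of fibrillar collagens and their processing was 2-fold different, with a median of -0.13, and the 3 selecting collagens Col1a1, Col1a2 and Col3a1 are among them (-0.26, -0.34 and -0.53). Sparc, which helps collagen assemble, had 11566 CPM in cycling and 16175 CPM in comparison fibroblasts (-0.48). The crosslinking enzyme gene Loxl2 (0.32) and Col5a3 (0.53) lay on the other side of 0. Basement membrane and network collagen genes had a median of -0.32, with Lama2, a laminin chain, at -0.93.

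The injury matrix list had a median of -0.45, with 14 of 20 intervals below 0 (24.6% over all genes). The 1 gene past 2-fold was higher, a share near the background of 5.21%. Postn, which marks activated fibroblasts, had 2086 CPM in cycling and 2884 CPM in comparison fibroblasts (-0.47, -0.50 to -0.43). Fibronectin (Fn1) had 2187 and 2960 CPM (-0.44) and Cthrc1, a collagen triple helix repeat protein of scar fibroblasts, 892 and 1008 CPM (-0.18). Tenascin C (Tnc) had 312 and 311 CPM. That gene was osteopontin (Spp1), with 73.9 and 35.6 CPM (1.05); it had 476 CPM in MI lymphocytes and 2459 CPM in cycling macrophages, so both fibroblast levels lie under the background. Among the others, the protease inhibitor gene Timp1 had 1104 and 769 CPM (0.52).

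Genes of later and of uninjured fibroblast states were lower. Of 6 measured matrifibrocyte genes 4 were at least 2-fold lower (6.89% over all genes) and none higher, with a median of -1.44. Comp, the cartilage oligomeric matrix protein, had 34.2 CPM in cycling and 124 CPM in comparison fibroblasts (-1.86, -2.12 to -1.60). Cilp had 22.5 and 79.6 CPM (-1.83), the proteoglycan gene Fmod 51.7 and 108 CPM (-1.06) and Angptl7 10.97 and 93.5 CPM (-3.09). Of the 4 list genes under 50 UMIs, 2 had no UMI in members, Chad among them. Chad was detected in only 2 of 2434 comparison fibroblasts, so its absence from members shows no difference.

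Comp was lower in members in a narrower range of depth as well. Among cells of 4000 to 12000 UMIs its log2 ratio was -1.40 and in the stricter cells -2.20. Thinned to 2000 UMIs, Comp was detected in 7.03% of members, 17.2% of comparison fibroblasts and 0 of 35 lymphocytes (13.1%, 26.0% and 0.694% unthinned). In that depth range, cells with no Comp UMI were members in 19.9% of cases and cells with at least 1 in 10.8%.

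The homeostatic list names genes of resting fibroblasts. In it, 11 of 16 measured genes lay past 2-fold below the comparison fibroblasts (6.89% over all genes) and none above (median -1.39). Decorin (Dcn), a proteoglycan that binds collagen, had 1128 CPM in cycling and 2517 CPM in comparison fibroblasts (-1.16, -1.20 to -1.11). Complement C3 had 52.5 and 258 CPM (-2.29, and -1.61 in the stricter cells), Pi16 6.27 and 31.7 CPM (-2.34), Clec3b 2.09 and 18.2 CPM (-3.12) and Igfbp4 154 and 430 CPM (-1.48). In sham cells with at least 0.3% collagen UMIs, a set chosen after seeing the data and by another collagen limit, Dcn had 14621 CPM, C3 1512 CPM, Pi16 1193 CPM and Clec3b 1174 CPM. For these 4 genes cycling fibroblasts were the lowest of the 3 sets, with MI comparison fibroblasts between, a difference between libraries that was not tested.

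The lowest genes of the ranking overlapped with these groups. Besides C3, Clec3b and Angptl7 they were C4a, C4b, Matn4, Enpp2, Adamts15, Podn, Adamtsl2, Clu and Gas6. Enpp2, which makes lysophosphatidic acid, had 6.53 CPM in cycling and 63.2 CPM in comparison fibroblasts (-3.27). Clusterin (Clu) had 98.7 and 442 CPM (-2.16), and Gas6, a ligand of the TAM receptors first cloned as a growth arrest gene, 142 and 539 CPM (-1.93). The complement genes C4a and C4b, with -4.57 and -3.33, are near-identical copies whose reads cannot be told apart with certainty.

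General identity genes did not move together. The 14 measured genes had a median of 0.00, with Pdgfra at 0.08 and the cardiac fibroblast transcription factor gene Tcf21 at -0.33 (-0.63 to -0.04). Cd34 (-1.66) and Mfap4 (-1.67) were lower, and S100a4 (0.68) and Thy1 (0.65) higher without reaching 2-fold. Among cells of 4000 to 12000 UMIs, those with a Tcf21 UMI were members in 18.97% of cases and those without in 17.4%, intervals that overlap.

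Levels did not change evenly with the number of cycle UMIs among cells of 4000 to 12000 UMIs. Dcn had 2675, 2263, 1442, 1043, 981 and 1079 CPM in cells with 0, 1, 2 to 4, 5 to 9, 10 to 19 and at least 20 cycle UMIs. Comp had 128, 89.1, 54.8, 22.5, 31.3 and 61.4 CPM over the same steps, and Postn 2941, 2702, 2067, 1626, 2048 and 2463 CPM. Acta2 had 1785, 2096, 2120, 3238, 2648 and 2680 CPM. Over all depths, the 252 cells with 2 to 4 cycle UMIs, which belonged to neither set, had 1570 CPM of Dcn and 46.6 CPM of Comp, between the 2 sets; in the depth range, Comp was no higher in them than in members with at least 20 cycle UMIs. Within members, Postn and Comp were lowest and Acta2 highest at 5 to 9 cycle UMIs, the bin with the fewest cells (71).

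**Figure D4:**
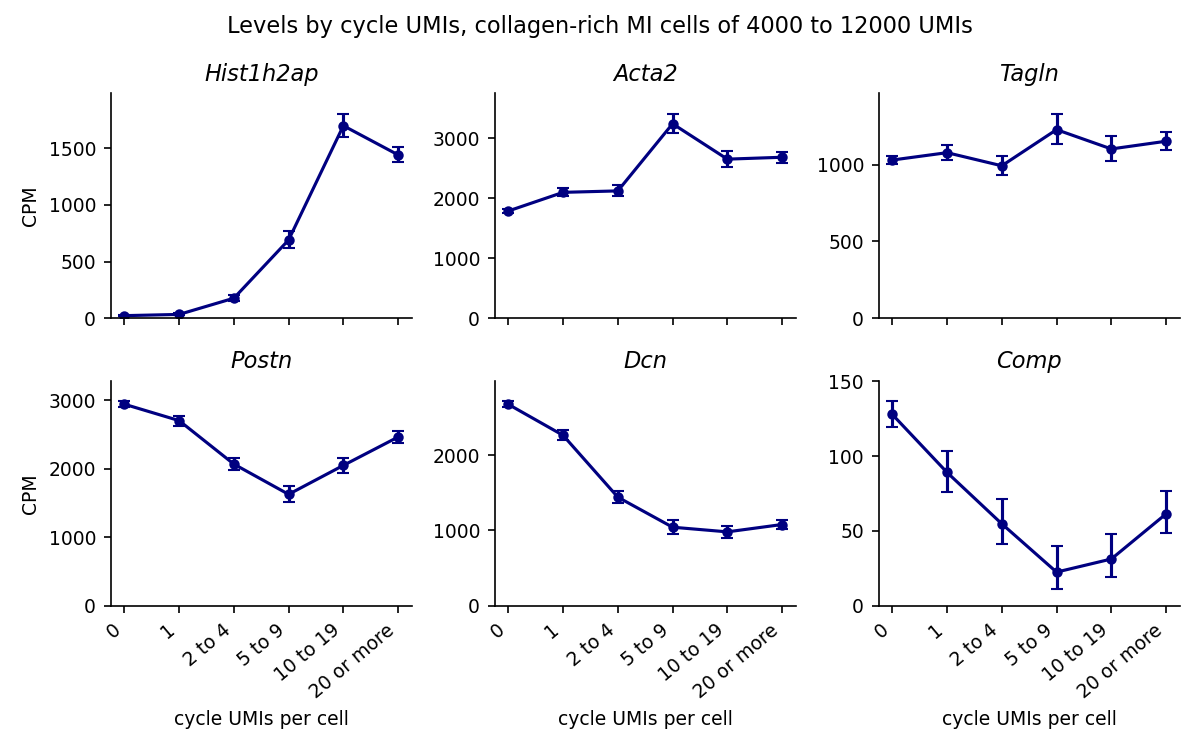
Levels in CPM (vertical axes, each from 0) of 6 genes by the number of cycle UMIs of a cell (horizontal axes) in collagen-rich MI cells of 4000 to 12000 UMIs; error bars are 95% Poisson intervals over summed UMIs. Dcn has 2675 CPM at 0 and 1079 CPM at 20 or more cycle UMIs, while Hist1h2ap has 22.9 and 1443 CPM.

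Growth factor and receptor genes lay in both directions. Of 31 measured 5 were at least 2-fold lower (6.89% over all genes) and none higher, with a median of -0.28. Insulin-like growth factor 1 (Igf1) had 152 CPM in cycling and 309 CPM in comparison fibroblasts (-1.02), Fgf7 9.66 and 22.9 CPM (-1.25) and Tgfb3 140 and 256 CPM (-0.87). Igfbp5 had a log2 ratio of -1.06, but -0.42 in the stricter cells. Intervals lay above 0 for 3 genes, Igf2 (0.78, but -0.91 in the stricter cells), Tgfb2 (0.24) and Pdgfa (0.21).

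The Wnt antagonists held genes in both directions. Sfrp1 had 568 CPM in cycling and 1332 CPM in comparison fibroblasts (-1.23, -1.29 to -1.17), Sfrp2 245 and 487 CPM (-0.99) and Frzb 36.1 and 72.4 CPM (-1.01). Dkk2, which binds the Wnt co-receptor LRP6, was 2.73-fold higher, with 57.2 and 20.97 CPM (1.45, 1.19 to 1.71), and had 1.38 in depth-matched and 1.53 in the stricter cells. Thinned to 2000 UMIs, Sfrp2 was detected in 24.04% of members, 40.4% of comparison fibroblasts and 5.71% of lymphocytes (40.4%, 52.3% and 4.86% unthinned). The family median over 6 measured genes was -0.94.

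Lists of biosynthesis and metabolism had medians above 0. Ribosome biogenesis genes had a median of 0.61 with 15 of 19 intervals above 0 (22.2% over all genes) and none past 2-fold, led by Nop58 (394 and 198 CPM, 0.99), while Myc, a driver of this program, had 25.6 and 23.1 CPM (0.15, -0.19 to 0.48). Glycolysis genes had a median of 0.34, secretory pathway and endoplasmic reticulum genes 0.23 and nuclear respiratory chain genes 0.17. The chaperone gene Hsp90b1 had 2530 CPM in cycling and 1560 CPM in comparison fibroblasts (0.70), whereas the stress-induced Dnajb9 had 15.1 and 37.7 CPM (-1.31).

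Immediate early and interferon genes were lower, with 13 of 14 and 11 of 12 intervals below 0 (24.6% over all genes). Of the immediate early genes 4 were at least 2-fold lower (6.89% over all genes), with a median of -0.54. Atf3 was at -1.55 and Klf4 at -1.26, though at -0.76 and -0.77 in the stricter cells. The list's median was -1.01 in cells of 4000 to 12000 UMIs. Of the interferon response genes 5 were at least 2-fold lower (6.89% over all genes), with a median of -0.83. Ifit3 had 10.7 and 37.7 CPM (-1.81) and Isg15 26.1 and 58.2 CPM (-1.16). Of 9 hypoxia genes 2 were at least 2-fold lower (6.89% over all genes), with a median of -0.61. The chemokine list had 2 of 10 genes at least 2-fold higher (5.21% over all genes), Ccl9 with 68.7 and 32.8 CPM (1.07) and Cxcl5 with 1.41. However, Cxcl5 had 0.01 in cells of 4000 to 12000 UMIs and -0.55 in the stricter cells.

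Members were also split by genes of cycle stages. By whether UMIs of replication and nucleotide genes exceeded those of 12 mitotic genes, 214 members were replication-rich and 242 mitosis-rich, with 9 ties. A difference of at most 2 UMIs was found for 61 of the 465, so the split is a cut of a range. Median depths were 7963.5 and 6865.5 UMIs. Among 7195 genes not used for the split, 108 (1.5%) were at least 2-fold higher and 147 (2.04%) at least 2-fold lower in replication-rich members.

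Histones and mitotic genes lay at opposite ends of that comparison. The cells had been split on genes of these same stages, so this order describes the split and supports nothing else. Of 34 histone genes 28 were at least 2-fold higher in replication-rich members (median 1.30), with summed levels of 12333 CPM in replication-rich and 3438 CPM in mitosis-rich members. Of 29 spindle and cytokinesis genes 21 were at least 2-fold lower (median -1.35). Cdca7, a Myc and E2F target, had 26.3 CPM in replication-rich and 1.61 CPM in mitosis-rich members (4.03). Aspm, of the spindle pole, had 27.8 and 209 CPM (-2.91), and the centromeric histone gene Cenpa 128 and 505 CPM (-1.98). Immunoglobulin genes such as Ighm, with 2.63 and 189 CPM, also differed, and the 1 member with the B cell UMIs lies on the mitosis-rich side.

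The fibroblast lists named here had medians from -0.72 to 0.07 between replication-rich and mitosis-rich members. Fibrillar collagen and processing genes had a median of 0.02 and injury matrix genes one of 0.07, with no gene past 2-fold in either list. Contractile genes had a median of -0.19, with summed levels of 15762 CPM in replication-rich and 17500 CPM in mitosis-rich members. Of 20 contractile genes 2 were at least 2-fold lower, Lmod1 (-1.05) and Myh11 (-1.05), against a background of 2.04%. The 5 measured matrifibrocyte genes had a median of -0.72, with Comp at 25.7 and 44.0 CPM (-0.77) and Cilp at 28.3 and 17.2 CPM (0.72). Homeostatic genes had a median of -0.09. Ribosome biogenesis genes had 0.35.

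**Figure D5:**
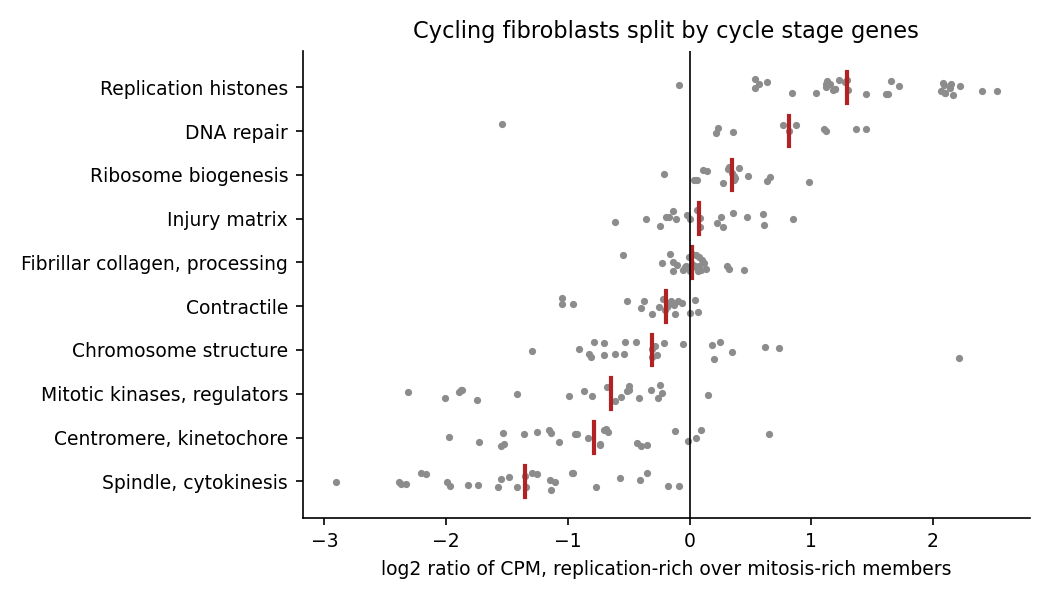
Log2 ratio of CPM of replication-rich over mitosis-rich members (horizontal axis) for genes of 10 lists (rows) that were not used to split the cells; each grey point is 1 gene and the red bar the median. The histone list has a median of 1.30 and the spindle list one of -1.35, while the fibrillar collagen list has 0.02.

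Cycling macrophages of the same library offered the nearest comparison. They were 274 cells with at least 5 cycle UMIs, at least 3 C1q UMIs and under 1.5% collagen UMIs, set against 2867 macrophages with at most 1 cycle UMI, and 7.64% of 8860 genes were at least 2-fold higher in them. Over genes measured in both cell types, spindle genes had medians of 5.21 in fibroblasts and 5.11 in macrophages and kinetochore genes 4.59 and 4.72. Replication genes had 2.08 in fibroblasts and 1.76 in macrophages, nucleotide synthesis genes 1.21 and 1.81, and histones 2.95 and 4.18. Cdkn1a had a log2 ratio of -1.14 in fibroblasts and of -0.09 (-0.32 to 0.13) in macrophages, where cycling cells had 210 CPM and the others 223 CPM.

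Several traits of the cycling fibroblasts were also seen in cycling macrophages. Over 18 contractile genes measured in both cell types the median was 0.37 in fibroblasts and 1.105 in macrophages, where 11 were at least 2-fold higher. Acta2 had 331 CPM in cycling and 138 CPM in comparison macrophages (1.27, 1.07 to 1.46), Tagln 170 and 60.2 CPM (1.502) and Actg2 41.3 and 13.1 CPM (1.65). These levels are far under those of fibroblasts, and Acta2 had 150 CPM in lymphocytes. Dcn (-1.02), C3 (-1.25) and Sfrp2 (-2.09) were lower in cycling macrophages too, but at low levels. Cycling and comparison macrophages had 69.5 and 141 CPM of Dcn, 19.5 and 46.4 CPM of C3, and 4.34 and 18.5 CPM of Sfrp2. The Sfrp2 values rested on 4 and 107 UMIs. Median depths of these macrophages were 2846.5 and 1754 UMIs, and the part of depth or of background RNA was not tested.

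Response genes likewise moved in both cell types. The interferon list had medians of -0.83 in fibroblasts and -0.76 in macrophages, with 5 of 12 genes at least 2-fold lower in each, against 6.25% of all genes in macrophages. The immediate early list had -0.54 and -0.76, and ribosome biogenesis genes 0.61 and 0.58. The injury matrix list had -0.44 in fibroblasts and 0.15 in macrophages. With 1 library, none of these differences between cell types was tested.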

How the data were processed

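Drop-seq libraries of 1 MI heart and 4 pooled sham hearts were analysed. The authors deposited raw counts of UMIs, by gene and barcode. The submitters' processing notes name mm10 and Seurat; the aligner, the counting and its strand setting, and how cells were dissociated are not given in these sources. The labels' protocols describe fixation in paraformaldehyde, embedding, and 12 amplification cycles. They also mention excluding mice by an aortic constriction gradient; neither this nor the embedding matches the stated ligation and Drop-seq design. Every deposited barcode had at least 500 genes. The MI library held 33275336 UMIs and the sham library 11307405.

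UMIs were summed per set and given as CPM with exact Poisson intervals; ratios have exact conditional binomial intervals and shares exact Clopper-Pearson intervals. A gene was counted by a point ratio of at least 2-fold with at least 50 UMIs over both sets. A gene at 0 was set to 3 counts over the set. UMIs from 1 heart are not independent animals. For shares of cells, each cell was thinned once (seed 1). Doublets were kept; scrublet in scanpy 1.11.5 called 127 of 8441 MI barcodes, 1 of the 465 members and 20 of the 2434 comparison fibroblasts. Computation used pandas 2.3.3, scipy 1.17.1, numpy 2.4.6 and matplotlib 3.10.9 under Python 3.11.15. The ratio step was tested on simulated Poisson counts summed per set. These hold no spread between cells, so the test does not show how the intervals behave with such spread.

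Members and gene lists were chosen with earlier results of these data known. Named genes were the 12 highest, the 12 highest outside the cell cycle lists and the 12 lowest by the interval bound nearest 0, among genes detected in at least 5% of a set, plus up to 4 members per list. Mitochondrial, ribosomal protein, hemoglobin, Y-linked and clone-named genes were left out. Further genes were named for their roles after their values were seen: Pdgfra, Pcna, Rrm1, Mcm6, Hist1h1b, Hist1h2bc, Pttg1, Zwint, Cdkn1b, Cdkn1c, the D cyclins, Tpm2, Tagln, Cald1, Csrp2, Dcn, Loxl2, Col5a3, Fn1, Cthrc1, Tnc, Timp1, Chad, Tcf21, Myc, Igf2, Tgfb2, Pdgfa, Lmod1, Myh11, Cdca7, Aspm, Cenpa and markers of other cell types. Promoter sequences are from RefSeq.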

Additional observations from a re-analysis of the deposited data

How the results depend on the processing

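The share of collagen-rich MI cells that were cycling fibroblasts was 14.8% and moved with the limits that define it, to 18.7% with at least 3 cycle UMIs, 10.9% with at least 10 and 12.5% with at least 3% collagen UMIs. With a minimum of 10 UMIs per gene in place of 50, 938 genes lay past 2-fold above and 1557 below, since more genes entered. The median log2 ratio of the injury matrix list, -0.45, was -0.34 with at least 3% collagen UMIs, -0.36 in cells of 4000 to 12000 UMIs, -0.34 with every cell weighted equally and -0.51 in cells with 0 mesothelial UMIs. That of fibrillar collagens was -0.052 with every cell weighted equally, and that of contractile genes 0.15 with 0 mesothelial UMIs; the cause was not tested. The other 117 such values stayed within the counting interval of the main value (for a list, that of its middle genes) or within 1.5 times the main count. Of 570 values of the ranked genes and of Acta2, Postn and Comp under these alternatives 570 kept their sign, and of 404 medians of other lists 393 did. Leaving out doublets, barcodes ending in N, or cells above 10% mitochondrial UMIs gave 596, 596 and 593 higher genes. Under median ratio scaling the median over all genes was -0.03 in place of -0.06, with 620 higher and 766 lower genes. The immediate early median, -0.54, was -1.01 in cells of 4000 to 12000 UMIs and -0.91 with every cell weighted equally. No paired analysis was possible because each group was 1 library. One heart per library, the shallow sham cells and the UMI-based limits bound what the values can show.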
